A study of Mus musculus with 8 samples.

Results

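The aldehyde dehydrogenase genes were followed while mouse embryonic fibroblasts (MEFs) were turned into induced pluripotent stem cells (iPSCs). The members were 10 genes listed by name, of 17922 rows in the expression table, and all 10 were found on 1 row each. The list was selected on FPKM values of these same libraries, led by Aldh3a1 because it was high in the middle of the time course and low at both ends, so the members' values between stages are given as descriptions. A further 10 aldehyde dehydrogenase genes of the table were read beside them, which made 20 in all.

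The cells came from C57BL/6 mice that carried the tetO-OSKM transgene, in which doxycycline switches on Pou5f1, Sox2, Klf4 and Myc. The MEFs came from fetuses at 13.5 days and were taken at day 0, before induction. Cells at day 3 and day 6 had received 2 ug/ml doxycycline in a serum-replacement medium with 1000 U/mL LIF and 3 uM CHIR99021, an inhibitor of GSK3. The iPSCs were described as fully reprogrammed. The sources used here do not give their medium, their passage or whether they were 1 clone, nor the medium of the MEFs. All stages shared the strain and the transgene. Each stage had 1 long RNA library, so no difference has a replicate error and none was tested. The libraries were made from bulk RNA, in which fewer cells of a type and less RNA per cell cannot be told apart.

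Aldehyde dehydrogenases oxidise aldehydes to carboxylic acids with NAD or NADP as the acceptor of electrons. The family serves both synthesis and detoxification. The ALDH1A enzymes make retinoic acid from retinal, the mitochondrial ALDH2 clears acetaldehyde, and the ALDH3 enzymes act on fatty aldehydes and on aldehydes that arise from lipid peroxidation. High aldehyde dehydrogenase activity is also used to enrich progenitor cells of several tissues by flow cytometry.

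Values are FPKM, fragments scaled to gene length and library size, so levels can be set side by side between genes. Differences are on the scale log2(FPKM + 1). A call of higher or lower needed a difference of at least 1 and a larger value of at least 1 FPKM. The fibroblast markers summed to between 6404 and 6771 FPKM in the first 3 libraries and to 197 in iPSCs. The pluripotency markers summed to at most 0.698 FPKM in the first 3 libraries and to 1212 in iPSCs. Rows of very low value gave the day 3 library a relative number of fragments of 0.637 of that of the MEF library, while the day 6 and iPSC libraries were at 1.03 and 1.01. An FPKM of a weakly expressed gene was thus least precise at day 3.

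Among the ALDH3 enzymes, Aldh3a1 (ENSMUSG00000019102) encodes a cytosolic enzyme that is abundant in the corneal epithelium, where it clears aldehydes formed under ultraviolet light. Aldh3a1 was at 0.360 FPKM in the MEF library, 9.97 on day 3, 70.2 on day 6 and 0.592 in the iPSC library. Both induced libraries were thus high and both ends of the course were low. The difference in log2(FPKM + 1) was 3.01 for day 3 against MEFs, 2.70 for day 6 against day 3 and -5.48 for iPSCs against day 6. The iPSC value was 1.65 times the MEF value, with both under 1 FPKM and therefore under the minimum for a call. Ranked by its difference, Aldh3a1 was in place 3 from the top of 11740 rows at day 3 against MEFs and in place 3 of 11817 at day 6 against day 3. By the excess of day 6 over the higher of MEFs and iPSCs, it stood in place 2 of 13101 rows. Aldh3a1 led the list because of this same pattern, so these places restate that choice and are no separate finding.

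The neighbouring gene Aldh3a2 (ENSMUSG00000010025) encodes the fatty aldehyde dehydrogenase of the endoplasmic reticulum, which is deficient in Sjogren-Larsson syndrome. It was at 26.1 FPKM in the MEF library, 23.5 on day 3, 25.4 on day 6 and 16.5 in the iPSC library, so that it was nearly level in the first 3 libraries. No other coding gene lies between Aldh3a1 and Aldh3a2 in the RefSeq table of assembly GRCm38.p6. The ratio of Aldh3a1 to Aldh3a2 was 0.0138 in the MEF library, 0.424 on day 3, 2.76 on day 6 and 0.0359 in the iPSC library. The order of the pair was therefore exchanged only in the day 6 library.

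Aldh3b1 (ENSMUSG00000024885) encodes a membrane-bound enzyme that acts on aldehydes of lipid peroxidation. Its values were 6.32 FPKM in the MEF library, 5.67 on day 3, 5.96 on day 6 and 1.67 in the iPSC library. It was lower in iPSCs than at day 6 by the rule of size, with a difference of -1.38, which was -0.72 with a pseudocount of 5 in place of 1. Summed over the 3 members of the ALDH3 branch, the level was 32.8 FPKM in the MEF library, 39.2 on day 3, 102 on day 6 and 18.7 in the iPSC library.

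**Figure D1:**
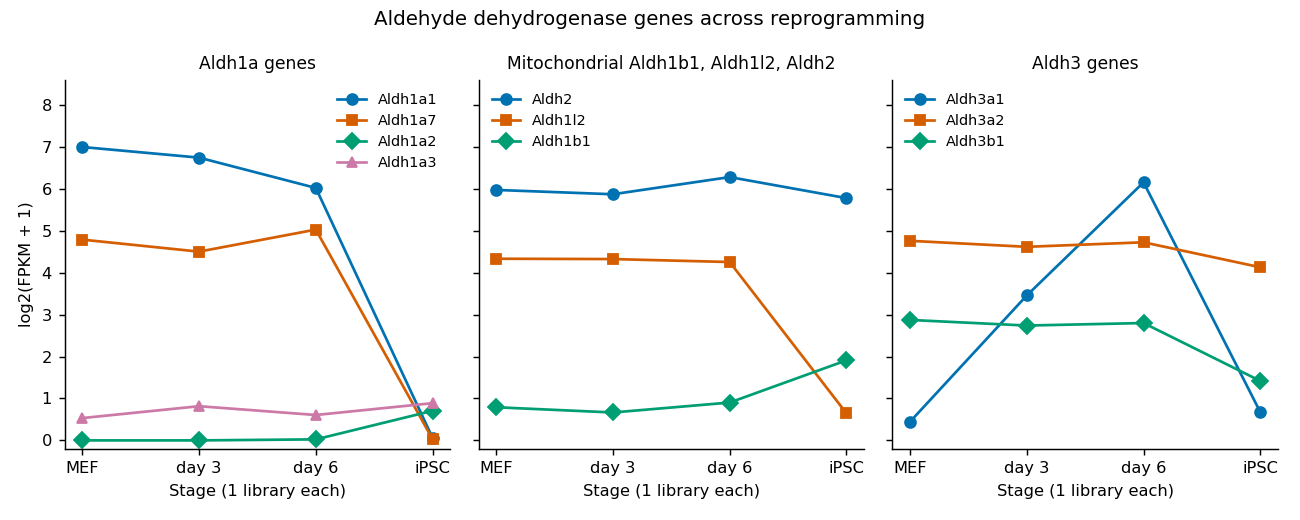
Level of each of the 10 members as log2(FPKM + 1) (vertical axis) at the 4 stages (horizontal axis, 1 library each, so no error bars), in panels for the Aldh1a genes, the mitochondrial genes and the Aldh3 genes. Aldh3a1 is high only in the middle of the course, at 70.2 FPKM on day 6, while Aldh1a1 and Aldh1a7 are high in the first 3 libraries and under 0.05 FPKM in iPSCs.

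Of the retinoic acid enzymes, Aldh1a1 (ENSMUSG00000053279) was the most highly expressed aldehyde dehydrogenase gene of the MEF library. Its values were 127 FPKM in the MEF library, 106 on day 3, 63.9 on day 6 and 0.0414 in the iPSC library. Each library was below the one before it. The difference between day 6 and MEFs was -0.98, which was just short of a call and the 75th lowest of 11816 rows. The difference between iPSCs and day 6 was -5.96. The genes E030003E18Rik, C730002L08Rik and Gm6684 overlap Aldh1a1 in the RefSeq table and could share its reads, since the sources used here do not give the strand setting of the counting.

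Aldh1a7 (ENSMUSG00000024747), a rodent paralog of Aldh1a1, is its next coding gene on the chromosome. Its values were 26.6 FPKM in the MEF library, 21.6 on day 3, 31.6 on day 6 and 0.0191 in the iPSC library. Aldh1a7 was thus highest at day 6, where Aldh1a1 was lowest of the first 3 libraries. The ratio of Aldh1a1 to Aldh1a7 was 4.76 in MEFs and 4.90 at day 3, and it was 2.02 at day 6. The genes are close paralogs, so the division of reads between them is uncertain, and their transcripts were not compared here. The sources used here do not say how the authors treated reads with several matches. Aldh1a1 and Aldh1a7 summed to 153 FPKM in the MEF library, 128 on day 3, 95.5 on day 6 and 0.0605 in the iPSC library.

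Aldh1a2 (ENSMUSG00000013584), the main retinoic acid enzyme of the early embryo, was listed at 0 in MEFs and at day 3, at 0.0170 FPKM at day 6 and at 0.631 in iPSCs. Aldh1a3 (ENSMUSG00000015134), which serves the eye and the nasal region of the embryo, was at 0.446, 0.760, 0.522 and 0.851 FPKM in the same order. Both genes stayed under 1 FPKM in every library and could not be called. The 4 Aldh1a genes together were at 154 FPKM in the MEF library, 129 on day 3, 96.0 on day 6 and 1.54 in the iPSC library. In the iPSC library that sum came mostly from Aldh1a2 and Aldh1a3.

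The promoter sequences of Aldh1a1 and Aldh1a7 were compared because both genes were near 0 in iPSCs and in no other library. RefSeq promoter entries (assembly GRCm38.p6, 250 bases before to 50 after a start) were matched by symbol to 6 of the 10 members, with 7 entries. Aldh3a1, Aldh2, Aldh1a3 and Aldh1l2 had no entry, so their promoters were not searched for any motif. Over the 100 bases before the start, the second listed start of Aldh1a1 and the start of Aldh1a7 were identical in 96 of 101 aligned positions. Over the full 300 bases they were identical in 233 of 322. The other listed start of Aldh1a1 was identical to that of Aldh1a7 in 192 of 356. The octamer ATGCAAAT, the recognition site of POU family factors, was looked for on both strands after these sequences had been read. It was found in 3 of the 6 members with an entry, against 532 of 27025 genes (1.97%) with an entry. Of aldehyde dehydrogenase genes with an entry, 4 of 15 had it. The matches of Aldh1a1 and Aldh1a7 lie in near-identical sequence and are not independent, and the other listed start of Aldh1a1 had no match. Since the octamer was picked from these sequences, the share over all genes is given as a description and tests nothing. The stretches of 80 bases around the octamer in the 3 members are shown 5' to 3' on the strand of each gene, with the octamer in capitals.
Aldh1a1, chr19:20601876-20601955, plus strand: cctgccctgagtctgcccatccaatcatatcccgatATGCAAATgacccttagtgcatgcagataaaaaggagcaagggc
Aldh1a7, chr19:20727569-20727648, minus strand: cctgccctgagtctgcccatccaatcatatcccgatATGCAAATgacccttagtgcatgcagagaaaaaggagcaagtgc
Aldh1a2, chr9:71215669-71215748, plus strand: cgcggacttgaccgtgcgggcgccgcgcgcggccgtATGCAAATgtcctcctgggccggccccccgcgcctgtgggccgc

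The octamer lay between 56 and 49 bases before the start in Aldh1a1 and in Aldh1a7, and between 84 and 77 bases before it in Aldh1a2. Within the 80 bases shown, Aldh1a1 and Aldh1a7 differed at 2 positions, T64G and G78T, counted from the 5' end with the Aldh1a1 base first. Aldh1a1 and Aldh1a7 were lower in iPSCs than in every other library, while Aldh1a2 had its highest value there. The core GCGTG, bound by the aryl hydrocarbon receptor, was present on either strand in 2 of the 6 members (Aldh1a2 and Aldh3a2), against 35.2% of all genes with an entry. The core TGACNNNGC of the antioxidant response element was present in 1 (Aldh1a2), against 14.0%. A match of letters is a description and shows no binding.

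The mitochondrial members differed from each other in iPSCs. Aldh2 (ENSMUSG00000029455), which clears acetaldehyde, was at 61.8 FPKM in the MEF library, 57.5 on day 3, 76.6 on day 6 and 53.8 in the iPSC library. It spanned 0.50 on the log2 scale over the 4 libraries and was within the rule in every contrast. Aldh1l2 (ENSMUSG00000020256), the mitochondrial formyltetrahydrofolate dehydrogenase, was at 19.1, 19.0, 18.1 and 0.562 FPKM. The first 3 libraries were close together, and the difference between iPSCs and day 6 was -3.61. Aldh1b1 (ENSMUSG00000035561), a mitochondrial enzyme close to ALDH2 in sequence, was at 0.729, 0.586, 0.869 and 2.76 FPKM, and its iPSC value was the highest. Its difference between iPSCs and day 6 was 1.01, just past the rule. Gm51778 overlaps Aldh1l2 in the RefSeq table, and Gm42059 and Gm29846 overlap Aldh3b1, so these rows could hold reads of other genes.

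Counted together, few members were past the rule before the iPSC stage. Of 7 members that reached 1 FPKM at day 3 or in MEFs, 1 was higher at day 3 (Aldh3a1) and 0 were lower. Over all rows 0.170% were higher and 0.0511% lower. Of 7 members compared between day 6 and day 3, 1 was higher, again Aldh3a1, and 0 were lower, beside 0.457% and 0.398% of all rows. Day 6 against MEFs gave the same counts of 1 and 0, beside 0.770% and 0.584% of all rows. With Aldh3a1 set aside, the other 6 members compared were all within the rule up to day 6.

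Between day 6 and iPSCs 8 members were compared. Of these, 5 were lower in iPSCs, which were Aldh1a1, Aldh3a1, Aldh1a7, Aldh1l2 and Aldh3b1, and 1 was higher, Aldh1b1. Over all rows 23.4% were lower and 20.4% higher. The median difference was -2.50 over the compared members and -0.02 over all compared rows, and members under 1 FPKM in both libraries do not enter it. Over all 10 members it was -0.99. Against MEFs, 4 of 7 were lower and 1 higher in iPSCs, beside 25.0% and 21.1% of all rows. The median of all rows for iPSCs against MEFs was -0.05 as deposited and 0.14 after rescaling to a common upper quartile, a shift that left the calls of the members as they were.

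The other aldehyde dehydrogenase genes that were compared were either higher in iPSCs or within the rule. Of the 8 compared between iPSCs and day 6, 5 were higher and 0 lower, beside 20.4% and 23.4% of all rows. Against MEFs, 4 of 8 were higher in iPSCs and 0 lower, beside 21.1% and 25.0% of all rows. Aldh16a1, an unusual family member with a pair of dehydrogenase domains, was at 51.5, 57.3, 54.3 and 121 FPKM over the 4 stages. It overlaps Pih1d1 in the RefSeq table, so reads of the pair may not be separated. Aldh9a1, an enzyme of carnitine synthesis, was at 8.56, 8.44, 10.5 and 25.8 FPKM, and Aldh4a1, of proline breakdown, was at 6.43, 6.11, 5.95 and 15.8. In both genes the iPSC library stood above the other 3, which were close together. Aldh5a1, of GABA breakdown, and Aldh1l1, the cytosolic formyltetrahydrofolate dehydrogenase, were only just past the rule, with differences of 1.02 and 1.00 on the log2 scale.

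Aldh18a1, which makes the precursor of proline, was at 44.9, 40.6, 40.3 and 24.3 FPKM and stayed within the rule. Aldh7a1, of lysine breakdown, was at 37.5, 34.0, 33.5 and 27.5 FPKM, and Aldh6a1, of valine breakdown, was at 14.5, 13.5, 10.9 and 10.2. These 3 genes were lowest in iPSCs without reaching a call. Aldh3b2 and Aldh8a1 were under 1 FPKM in every library. The direction of these 10 genes is set beside that of the members as a description, since the members were listed with values of these libraries known.

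**Figure D2:**
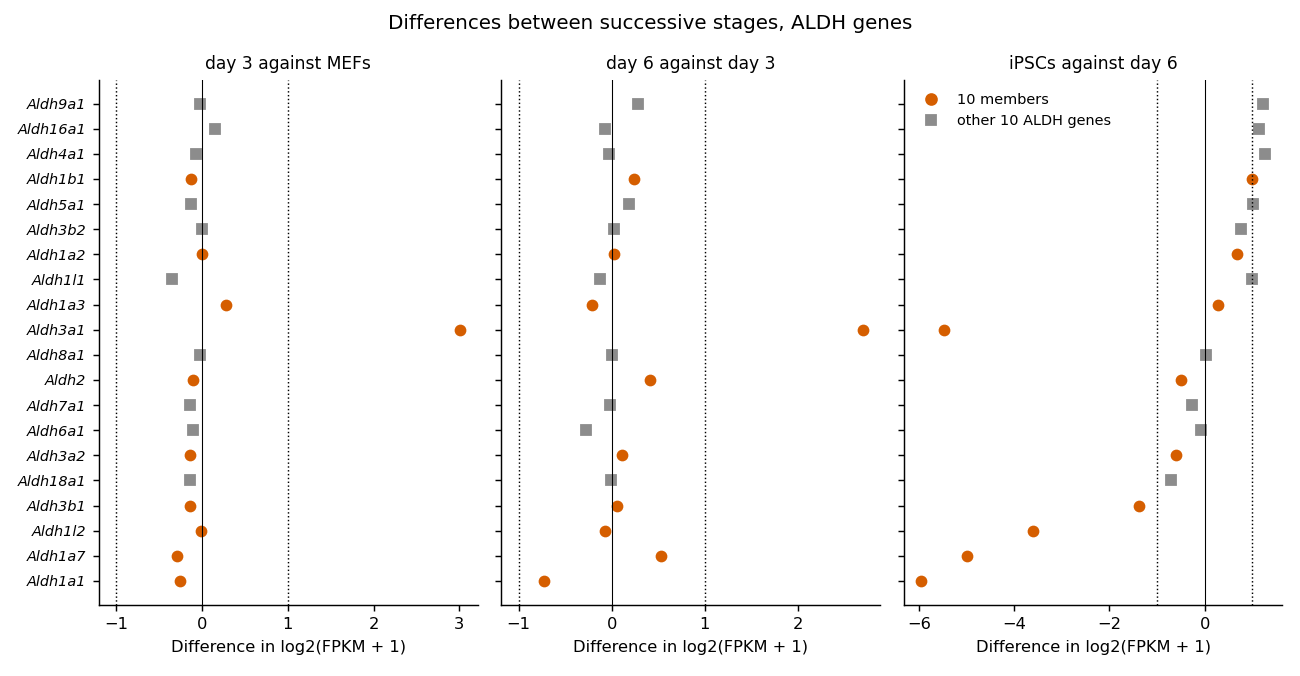
Difference in log2(FPKM + 1) between successive stages (horizontal axes, 1 panel each with its own range) for 20 aldehyde dehydrogenase genes (rows, ordered by iPSCs against MEFs), with dotted lines at the differences of 1 and -1 that a call needs. Aldh3a1 is past the line in all 3 panels, at 3.01, 2.70 and -5.48, and the other 19 genes lie between the lines in the first 2 panels.

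The leading gene of the family changed between stages. The 20 genes summed to 435 FPKM in the MEF library, 407 on day 3, 451 on day 6 and 310 in the iPSC library. Aldh1a1 made up 29.1% of the sum in MEFs and 26.1% at day 3. At day 6 Aldh2 was first with 17.0%, with Aldh3a1 next at 15.6% and Aldh1a1 after it at 14.2%. These 3 levels of 76.6, 70.2 and 63.9 FPKM were close, and with no replicates their order has no measured spread. In iPSCs Aldh16a1 was first with 39.1% and Aldh2 next with 17.4%. Without Aldh3a1 the other 19 genes summed to 435, 397, 381 and 309 FPKM, so their sum was lower at each stage than at the one before, while the sum over all 20 was highest at day 6. The 10 members held 61.6% of the sum in the MEF library, 60.1% on day 3, 65.0% on day 6 and 25.0% in the iPSC library.

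**Figure D3:**
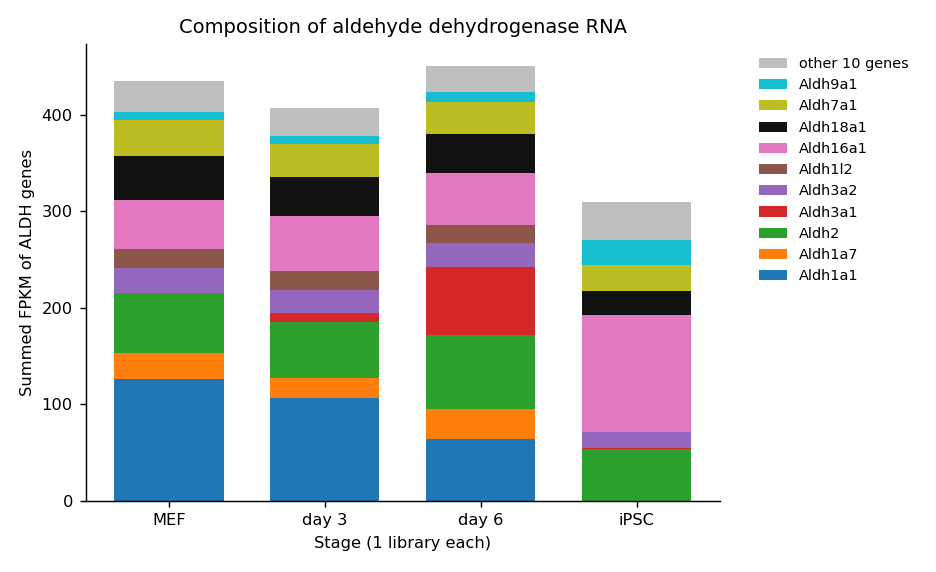
Summed FPKM of the 20 aldehyde dehydrogenase genes (vertical axis) in each of the 4 libraries (bars), divided by gene, with the other 10 genes together in grey. Aldh3a1 takes up 70.2 of 451 FPKM at day 6, and the Aldh1a1 and Aldh1a7 segments are absent to the eye in iPSCs, where Aldh16a1 holds 39.1%.

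Genes with a pattern like that of Aldh3a1 were sought by the Euclidean distance between differences from MEFs at day 3, day 6 and in iPSCs, on the log2(FPKM + 1) scale, among 13100 other rows that reached 1 FPKM in a library. The closest was Slurp1, the gene of a protein secreted by stratified epithelia, at a distance of 0.642. Slurp1 was at 0.143 FPKM in the MEF library, 12.2 on day 3, 67.9 on day 6 and 0.0664 in the iPSC library. The next was Mal, a membrane protein gene of myelin, lymphocytes and epithelia, at a distance of 2.34, with 0.342, 4.85, 15.0 and 1.07 FPKM. Slurp1 was therefore much nearer to Aldh3a1 than any other row. The remaining 3 of the closest 5 were the predicted genes Gm17631, Gm10337 and Gm17530, at distances of 3.04, 3.18 and 3.45. Within the family the nearest was Aldh2, in place 1490 of the 13100 rows at a distance of 6.25. Aldh1a1 was the farthest, in place 13083.

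**Figure D4:**
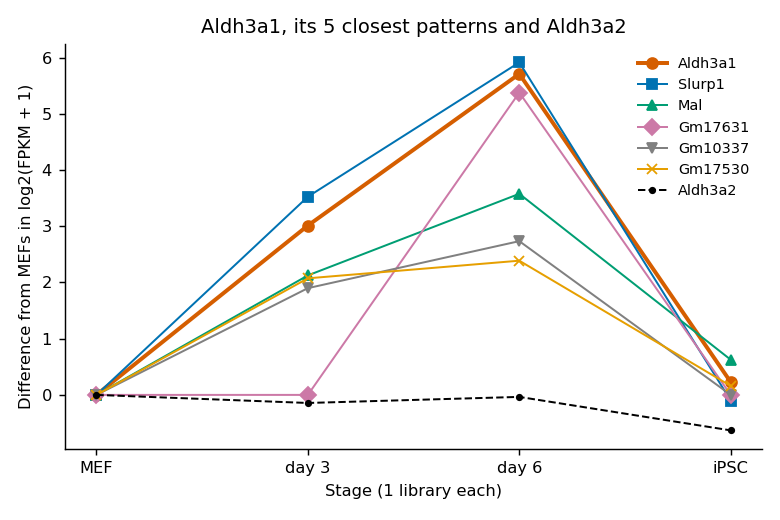
Difference from MEFs in log2(FPKM + 1) (vertical axis) at the 4 stages (horizontal axis, 1 library each) for Aldh3a1, the 5 rows closest to it and its neighbour Aldh3a2 (dashed). Slurp1 follows Aldh3a1 at a distance of 0.642, and Aldh3a2 stays between 0 and -0.63.

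Because the enzyme is typical of cornea, markers of corneal and epidermal epithelium were read beside Aldh3a1. Of 12 such markers, 8 were on rows of the table. They summed to 4.11 FPKM in the MEF library, 17.0 on day 3, 88.2 on day 6 and 2.59 in the iPSC library, and 1, 2, 5 and 0 of them were at or above 1 FPKM. Most of the day 6 sum was Slurp1. The keratin genes Krt14 and Krt16 were at 4.66 and 5.27 FPKM at day 6, with Krt14 listed at 0 in MEFs and Krt16 at 0.0662. Krt6a was listed at 0 in every library but that of day 6, where it was at 0.566 FPKM. Krt10 was between 0.188 and 0.351 FPKM in every library. Krt12, Krt5, Sprr2d and Lor had no row under these symbols and could not be read. The corneal regulator Pax6 was between 0.0839 and 0.128 FPKM in the first 3 libraries, and the epidermal regulator Trp63 was at 0.816, 0.713 and 1.05. The markers' part in the Aldh3a1 values was not tested.

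Aldh3a1 is also known as a target of the transcription factor NRF2 and of the aryl hydrocarbon receptor, and both pathways were read from lists drawn up with earlier results of these data known. Of 25 NRF2 targets compared between day 6 and day 3, 7 were higher and 0 lower, beside 0.457% and 0.398% of all rows. Of these 25 targets, 24 were above their day 3 value, beside 5600 of 11817 over all rows. The median difference of the targets was 0.56, beside -0.01 over all rows. Gsta4, a glutathione transferase for lipid aldehydes, was at 3.04 FPKM in the MEF library, 6.78 on day 3, 29.7 on day 6 and 308 in the iPSC library. Nqo1, a quinone reductase, was at 41.2, 62.3, 159 and 15.4 FPKM, and Srxn1, a sulfiredoxin, was at 18.2, 18.0, 49.4 and 10.1. All 3 genes were above MEFs at day 6, yet Gsta4 was highest in iPSCs while Nqo1, Srxn1 and Aldh3a1 were low there. Gsta2 had a difference of 1.47 between day 6 and day 3, and its reads may not be separated from those of the near-identical Gsta1. Between iPSCs and day 6, 13 of the 25 were lower and 1, Gsta4, was higher, beside 23.4% and 20.4% of all rows.

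Of 8 genes of the aryl hydrocarbon receptor list compared between day 6 and day 3, 3 were higher and 0 lower. The higher genes were Ahr, Ugt1a6a and Nqo1, which is also counted among the NRF2 targets. Over all rows 0.457% were higher and 0.398% lower. Ahr, the receptor gene, was at 6.65 FPKM in the MEF library, 8.48 on day 3, 23.5 on day 6 and 2.13 in the iPSC library. Its classical target Cyp1a1 stayed at or under 0.252 FPKM in every library. Cyp1b1, another target, was at 175, 191, 215 and 2.26 FPKM, and Ahrr, the repressor of the receptor, was at 4.81, 4.81, 2.40 and 0.144. Genes of the list thus stood at different places at day 6, with 5 of 8 above day 3 and 3 below it. Ahr and Nqo1 were among those above. Ahrr was among those below, as was Tiparp, at 30.0 FPKM on day 3 and 21.0 on day 6. Between iPSCs and day 6, 5 of 8 were lower and 0 higher, beside 23.4% and 20.4% of all rows.

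Around the Aldh1a enzymes, 30 genes of retinoic acid handling were listed and 29 found. Between day 3 and MEFs 0 of 20 compared were past the rule, beside 0.170% higher and 0.0511% lower over all rows. Between day 6 and day 3 only Crabp2 was past it, a carrier of retinoic acid to its receptors, with 9.33 and 22.3 FPKM. Over all rows 0.457% were higher and 0.398% lower in that contrast. Between iPSCs and day 6, 11 of 24 were lower and 4 higher, beside 23.4% and 20.4% of all rows. The lower genes included the retinol and retinal enzymes Dhrs9, at 22.3 and 0.0367 FPKM, and Dhrs3, at 63.5 and 3.72. The retinol dehydrogenase gene Rdh10, which supplies retinal to the Aldh1a enzymes, was at 7.50 FPKM at day 6 and 2.32 in iPSCs. The higher genes were Crabp1 (0.318 and 8.99 FPKM), Stra8 (listed at 0 and at 6.65), the retinoic acid hydroxylase Cyp26a1 (listed at 0 and at 3.59) and the retinol transporter Stra6 (0.0957 and 1.82). Rdh11, of the same family as Rdh10, was within the rule at 17.3 and 25.5 FPKM. Dhrs9, Dhrs3 and Rdh10 were thus low in the library in which Aldh1a1 was low, while Crabp1, Stra8, Cyp26a1 and Stra6 were high there. The list did not divide by role, since Crabp2 and the hydroxylase gene Cyp26b1 were also lower in iPSCs. Crabp2 was at 22.3 FPKM at day 6 and 4.73 in iPSCs, and Cyp26b1 was at 2.88 and 0.237.

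The receptors for retinoic acid differed less. Rara was between 10.3 and 11.2 FPKM in all 4 libraries. Rarg was at 29.5 FPKM in the MEF library, 29.8 on day 3, 26.3 on day 6 and 19.4 in the iPSC library. Rarb stayed under 1 FPKM in every library. Of the partner receptors, Rxra was at 20.0 FPKM at day 6 and 4.81 in iPSCs, and was the only retinoid receptor gene past the rule.

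The folate partners of Aldh1l2 did not share its low iPSC value. Of 17 compared between iPSCs and day 6, 6 were higher and 2 lower, with a median of 0.37. Over all rows 20.4% were higher and 23.4% lower, with a median of -0.02. The glycine cleavage gene Gldc was at 0.0792 FPKM at day 6 and 43.0 in iPSCs, and Amt, of the same system, was at 0.968 and 35.4. The cytosolic enzyme genes Mthfd1 and Shmt1 were at 19.2 and 6.21 FPKM at day 6 and at 105 and 34.8 in iPSCs. The mitochondrial enzyme genes Mthfd2 (33.7 and 32.5 FPKM) and Shmt2 (36.2 and 46.2) were within the rule. Before the iPSC stage 0 of these genes were past the rule, beside at most 0.770% higher and 0.584% lower over all rows.

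Other enzymes of aldehydes and alcohols varied gene by gene. Of 13 alcohol dehydrogenases and carbonyl reductases compared between iPSCs and day 6, 5 were lower and 2 higher. Over all rows 23.4% were lower and 20.4% higher. Cbr2, a carbonyl reductase of lung and other tissues, was at 287 FPKM in the MEF library, 247 on day 3, 134 on day 6 and 0.169 in the iPSC library, and was the only gene of this list past the rule at day 6 against MEFs. Over all rows 0.770% were higher and 0.584% lower in that contrast. The Cbr2 values, like those of Aldh1a1, were lower at each stage. Adh5, which clears formaldehyde, was at 51.5, 47.6, 52.7 and 157 FPKM, and was highest in iPSCs. Akr1c14 was at 8.49 FPKM at day 6 and 0.199 in iPSCs.

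Of 11 lipid aldehyde genes that act beside Aldh3a2 and Aldh3b1, 0 were past the rule between day 6 and day 3. Over all rows 0.457% were higher and 0.398% lower. In iPSCs 3 were lower and 2 higher than at day 6, which is near the 23.4% and 20.4% of all rows. Gpx4, the peroxidase of membrane lipids, was at 261 FPKM at day 6 and 680 in iPSCs, and Sphk1, a sphingosine kinase, was at 10.6 and 1.22. Of 9 mitochondrial partners 0 were past the rule between day 6 and day 3, beside 0.457% higher and 0.398% lower over all rows. Of 9 compared between iPSCs and day 6, 2 were lower and 1 higher, beside 23.4% and 20.4% of all rows. Oat, of ornithine and proline metabolism, was lower at 109 and 20.7 FPKM, and Abat, of GABA breakdown, was lower at 4.70 and 0.843. Prodh, the proline dehydrogenase that works before Aldh4a1, was higher at 0.574 and 4.83.

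**Figure D5:**
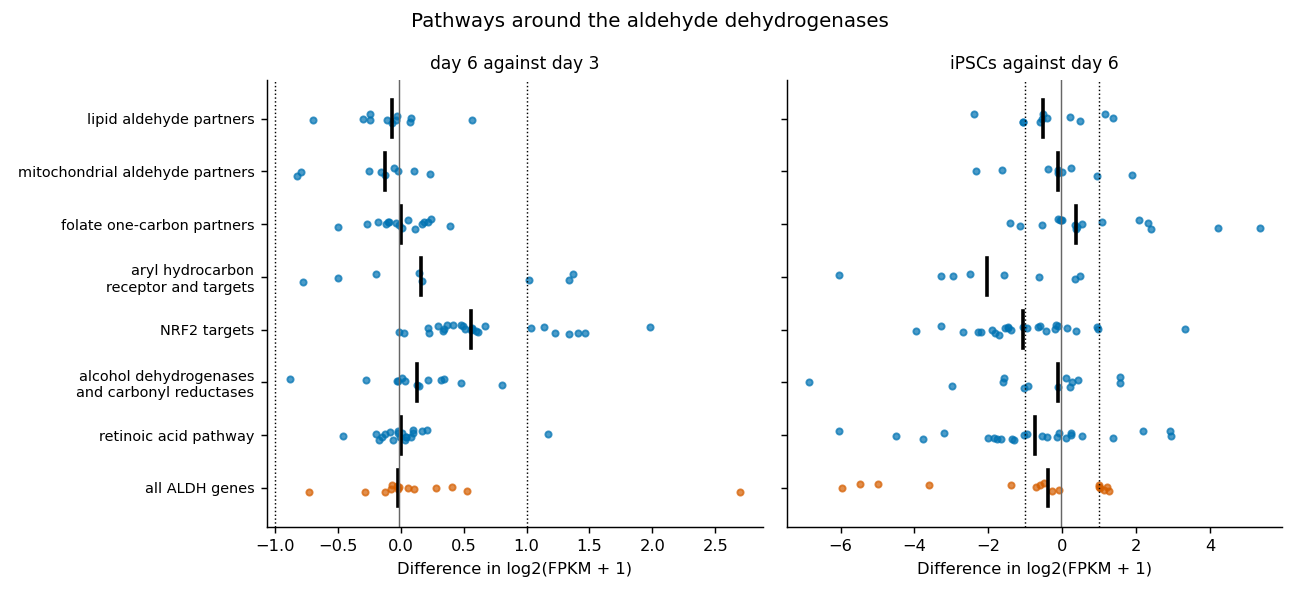
Difference in log2(FPKM + 1) (horizontal axes, each with its own range) of the 20 aldehyde dehydrogenase genes (orange) and of 7 lists of partner genes (blue) for day 6 against day 3 and iPSCs against day 6. Each point is a gene of at least 1 FPKM in either library, moved up or down at random for visibility, the black bar is the list's median, the grey line is the median of all rows, and dotted lines mark 1 and -1. The NRF2 targets have a median of 0.56 at day 6 against day 3, and Aldh3a1 is the rightmost point of that panel at 2.70.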

How the data were processed

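Long RNA of 4 stages was sequenced after removal of ribosomal RNA, per the labels' protocols. The authors deposited 1 FPKM value per gene and stage, per the file headers. The submitters' processing notes name HISAT2, Cufflinks and mm9, without versions or roles. The sources used here do not give the strand setting, the gene models or the depth. The 4 small RNA libraries are not analysed here.

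Groups came from the sample titles, with 1 library each, so no test was run. Differences were taken after adding 1 FPKM, with Python 3.11.15 and pandas 2.3.3, and calls needed a log2 difference of 1 and 1 FPKM. A symbol on several rows was represented by its highest row. Named genes were the members, other family genes, the 5 rows closest to Aldh3a1, and per list the largest differences and set defining genes. Some further list genes (Akr1c14 and those compared by role) were chosen after their values were seen. The members and lists were chosen with earlier results of these data known. All 20 family rows matched their symbol by Ensembl identifier. Promoter alignments used Biopython 1.88. Alternatives were the pseudocount, rescaling, the minimum FPKM, a stricter difference and summing Aldh1a1 with Aldh1a7.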

Additional observations from a re-analysis of the deposited data

How the results depend on the processing

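No call has a replicate check, and the day 3 library was the shallowest. No paired analysis was possible because the stages have 1 library apiece, and no replicate could be left out for the same reason. Of 80 counts of members under the alternatives, 74 stayed within 1.5 times the reported count. The others were the counts of members higher in iPSCs than at day 6 and than in MEFs, each 1 (Aldh1b1). These counts were 0 with a pseudocount of 5, 0 with a minimum of 5 FPKM and 0 with a log2 difference of 2. Aldh1b1 reached only 2.76 FPKM, and its differences of 1.01 against day 6 and 1.12 against MEFs were under 2. Summing Aldh1a1 and Aldh1a7, an alternative chosen after seeing the data, left 4 lower members between iPSCs and day 6. Of 250 member differences 225, and of 230 list medians 221, moved by under 1.5-fold, and no called value changed sign. The Aldh3a1 difference between day 6 and MEFs was 7.26 with a pseudocount of 0.1 and 3.81 with 5, in place of 5.71. Rescaling changed the sign of medians near 0, such as that of the mitochondrial partners in iPSCs against day 6, which was -0.10 as deposited and 0.07 with upper quartile rescaling.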
